A study of Mus musculus with 8 samples.

Results

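The enzymes that break down the branched-chain amino acids leucine, isoleucine and valine were compared in brown adipose tissue (BAT) between sham-operated mice (Sham) and mice whose aorta had been narrowed surgically (thoracic aortic constriction, TAC). The 10 genes Bcat1, Bcat2, Bckdha, Bckdhb, Dbt, Bckdk, Ppm1k, Ivd, Mccc1 and Mccc2 were found on the array by the RefSeq accession of each probe. This gave 14 of the 55681 probes (10 of the 21154 genes named), and no measured value was used to pick these probes. The list of genes was drawn up with earlier results of these data known. Bcat1 had 3 probes, Ppm1k and Mccc1 had 2 each, and the other genes had 1. All mice were male C57BL/6NCrSlc without any genetic change, operated on at 11 weeks of age and 13 weeks old at collection, with 4 labelled samples in each group. The labels place collection 2 weeks after surgery in the source name and treatment protocol but 4 weeks after it in the description. Each sample was hybridised to a 1-colour Agilent array, on which the brightness of a probe measures its transcript.

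Branched-chain amino acids enter mitochondria, where branched-chain aminotransferase removes the amino group and the branched-chain α-keto acid dehydrogenase complex irreversibly decarboxylates the resulting keto acid. A kinase switches the complex off by phosphorylation and a phosphatase switches it on, and separate enzymes then carry the leucine, isoleucine and valine skeletons towards acetyl-CoA, ketone bodies or propionyl-CoA. Brown adipocytes are known to take up and oxidise these amino acids as a fuel when thermogenesis is active, with SLC25A44 as a mitochondrial carrier.

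After TAC, Bcat2 was the member with the largest higher mean, 1.42-fold above Sham, and Mccc1 the member with the largest lower mean, 1.36-fold below Sham. Neither passed the test over all probes, and 0 of the 10 genes reached an adjusted p of 0.05 with limma, as did 0 of the 33364 probes tested (0.0% in each direction). At an unadjusted p of 0.05, 1 member was higher (Bcat2) and 0 were lower, where 4.38% of all probes tested were higher and 8.43% were lower. The median log2 difference of the members was -0.07, beside -0.03 for all probes tested, but with quantile normalization it was 0.0061 beside -0.02, so neither its sign nor its order against all probes held. The 95% interval of the difference stayed within a 2-fold change in either direction for all 10 genes, each taken by its brightest probe. It did so for 28089 of the 33364 probes tested.

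Levels below are log2 intensities relative to the 75th percentile of the array, and differences are TAC minus Sham on that log2 scale, so a level says nothing about one gene against another. Scanner intensities were used for 7 arrays (Sham replicates 2 to 4, TAC replicates 1 to 4), all on 1 slide. The Sham arrays lay in its row 1 and the TAC arrays in row 2, so slide row and surgery cannot be told apart. Sham replicate 1 is known here only from a second deposited table of all 8 arrays with its own scaling, and was compared only within that table. TAC replicate 1 stood apart from the other TAC arrays: its macrophage marker list, 9 of 9 genes tested, averaged 1.36 above the Sham mean on the log2 scale, against -0.50 to -0.23 on TAC replicates 2 to 4 and -0.20 to 0.22 on the Sham arrays. Brown adipocyte markers were present in every sample, with Ucp1, the uncoupling protein of brown fat, well above background on 7 of 7 arrays. Because whole tissue was measured, fewer cells of a type and less RNA per cell cannot be told apart, and, as the samples are described as independent but not tied to named animals, p-values measure only the spread between these samples.

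The sequences upstream of Bcat2, Mccc1 and Mccc2 are given because these genes had the largest log2 differences of the members. They run from 250 bases before to 50 bases after an annotated transcript start, from RefSeq on mouse build GRCm38.p6, 5′ to 3′ on the strand of the gene, with the motif CCAAT and its reverse complement ATTGG in capitals. Bcat2 has a pair of annotated starts, chr7:45569903-45570202 and chr7:45571029-45571328 on the plus strand. Mccc1 lies at chr3:36000629-36000928 and Mccc2 at chr13:100015590-100015889, both on the minus strand.
Bcat2, first window: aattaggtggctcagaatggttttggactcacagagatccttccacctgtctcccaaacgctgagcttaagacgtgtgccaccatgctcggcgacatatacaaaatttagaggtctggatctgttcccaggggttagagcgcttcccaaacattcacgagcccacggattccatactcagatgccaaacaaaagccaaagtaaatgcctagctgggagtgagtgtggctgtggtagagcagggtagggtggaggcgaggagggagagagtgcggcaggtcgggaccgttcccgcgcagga
Bcat2, other window: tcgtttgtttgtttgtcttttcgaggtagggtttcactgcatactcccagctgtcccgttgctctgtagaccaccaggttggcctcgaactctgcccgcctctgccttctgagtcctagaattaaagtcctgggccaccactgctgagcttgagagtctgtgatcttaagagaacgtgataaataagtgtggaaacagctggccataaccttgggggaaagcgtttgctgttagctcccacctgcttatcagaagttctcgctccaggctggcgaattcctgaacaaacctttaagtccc
Mccc1: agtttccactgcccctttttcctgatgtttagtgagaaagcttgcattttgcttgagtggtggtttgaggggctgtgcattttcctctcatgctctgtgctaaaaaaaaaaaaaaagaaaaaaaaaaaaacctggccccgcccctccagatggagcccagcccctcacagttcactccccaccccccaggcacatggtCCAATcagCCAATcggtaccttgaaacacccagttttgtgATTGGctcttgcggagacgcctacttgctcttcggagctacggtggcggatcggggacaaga
Mccc2: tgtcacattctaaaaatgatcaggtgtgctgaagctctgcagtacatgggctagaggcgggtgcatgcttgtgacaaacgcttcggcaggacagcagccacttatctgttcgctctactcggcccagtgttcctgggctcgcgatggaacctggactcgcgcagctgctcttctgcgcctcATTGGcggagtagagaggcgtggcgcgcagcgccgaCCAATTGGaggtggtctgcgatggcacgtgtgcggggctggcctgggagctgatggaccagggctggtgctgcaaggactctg
The Mccc1 and Mccc2 windows each held 3 matches to CCAAT on either strand, of which 1 pair overlapped in Mccc2, and the Bcat2 windows held none. Over the 12 windows of the 9 members in the table, 8 held CCAAT, a motif present in 37.4% of all 32851 windows of this length. CACCC with its reverse complement GGGTG was in 8 of 12 member windows and 57.5% of all windows, GGGCGG with CCGCCC in 3 of 12 and 35.7%, and CACGTG in 1 of 12 (Mccc2) and 7.15%. The motifs were chosen after these windows had been read, and a match describes letters only. No window of Dbt was in the table.

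The aminotransferases catalyse the reversible opening step, BCAT2 in mitochondria and BCAT1 in the cytosol. Bcat2 had log2 levels of 4.22, 3.8 and 4.01 on Sham replicates 2 to 4 and of 4.35, 4.76, 4.57 and 4.38 on TAC replicates 1 to 4. Every TAC array lay above every Sham array, which was true of 5.59% of all probes tested. The means were 4.01 ± 0.21 (SD, n = 3) and 4.52 ± 0.19 (SD, n = 4), a log2 difference of 0.50 (SE 0.15, 95% interval 0.16 to 0.85) with a limma unadjusted p of 0.0102 and an adjusted p of 0.274. In the table of 8 arrays the Bcat2 levels were 4.59, 4.42, 3.99 and 4.20 for Sham and 4.54, 4.94, 4.75 and 4.55 for TAC. There Sham replicate 1 lay above 2 of the 4 TAC arrays, so the groups overlapped, and the log2 difference was 0.39 (SE 0.15, limma adjusted p 0.310). In the skeletal muscle marker list, 10 of 10 genes were tested and 10 of 10 had a higher mean after TAC. So did 14731 of the 33364 probes tested, and 0 of the 10 genes reached a limma unadjusted p of 0.05. The list mean ranged from -0.75 to 0.81 around its Sham mean on Sham replicates 2 to 4 and from -0.30 to 1.70 on the TAC arrays. Mylpf lay opposite the other 9 genes on TAC replicates 2 to 4, at -0.51, 1.31 and -0.50 from the Sham mean. On TAC replicates 1 to 4 the muscle list was at 1.70, 1.15, -0.30 and 1.53, and Bcat2 was 0.34, 0.75, 0.56 and 0.37 above its Sham mean. On Sham replicates 2 to 4 the muscle list was at -0.75, 0.81 and -0.06, and Bcat2 at 0.21, -0.21 and 0.0014. Sham replicate 1, whose Bcat2 level ended the separation of the groups, had the muscle list at 0.77 and Bcat2 at 0.39 within the table. Both were thus above the Sham mean on TAC replicates 1, 2 and 4 and on Sham replicate 1, and they lay on opposite sides of it on TAC replicate 3 and Sham replicates 2 and 3, with both close to it on Sham replicate 4. The part of muscle RNA in the Bcat2 difference was not tested.

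Bcat1 was dim. Its brightest probe, well above background on 7 of 7 arrays, had log2 levels of -3.18, -3.37 and -2.33 for Sham and -2.07, -3.38, -3.0 and -2.84 for TAC. The TAC arrays spanned the Sham arrays, with TAC replicate 1 the highest of all 7, and the log2 difference was 0.13 (SE 0.36, 95% interval -0.72 to 0.98, limma adjusted p 0.893). Without TAC replicate 1 the difference was -0.12. Another probe gave -0.14 (adjusted p 0.843), and the remaining Bcat1 probe was well above background on 2 of 7 arrays and was not tested. The macrophage list was also highest on TAC replicate 1, and its part in the Bcat1 level there was not tested.

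**Figure D1:**
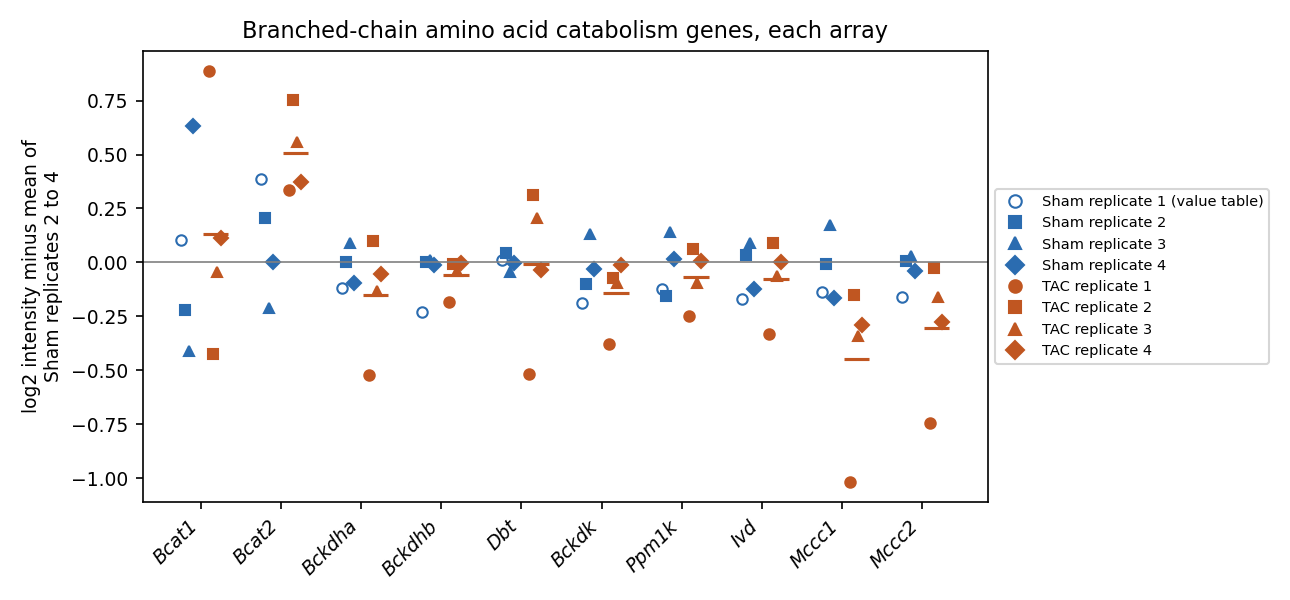
Log2 intensity of the 10 genes (brightest probe) on each array minus the mean of Sham replicates 2 to 4, with a symbol for each replicate, a bar for the TAC mean, and Sham replicate 1 (open circle) taken from the table of 8 arrays. All 4 TAC arrays of Bcat2 lie above Sham replicates 2 to 4, and TAC replicate 1 is the lowest of the 7 scanner arrays for 8 of the 10 genes.

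The core of the dehydrogenase complex is built from the E1α subunit (Bckdha), the E1β subunit (Bckdhb) and the transacylase E2 (Dbt). Bckdha had log2 levels of 7.92, 8.01 and 7.82 for Sham and 7.4, 8.02, 7.79 and 7.87 for TAC. TAC replicate 1 was the low array and the other TAC arrays lay within or beside the Sham range, giving a log2 difference of -0.15 (SE 0.15, 95% interval -0.52 to 0.21, limma adjusted p 0.692) and of -0.03 without TAC replicate 1. Bckdhb was the steadiest member, at 6.36, 6.37 and 6.35 for Sham and 6.17, 6.35, 6.32 and 6.36 for TAC. Its log2 difference was -0.06 (95% interval -0.25 to 0.13, limma adjusted p 0.777). Dbt was at 1.85, 1.76 and 1.80 for Sham and 1.29, 2.11, 2.01 and 1.77 for TAC. The Sham arrays lay close together, with TAC arrays above, among and below them, and the log2 difference was -0.01 (95% interval -0.47 to 0.45, limma adjusted p 0.989), or 0.16 without TAC replicate 1.

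The complex is regulated by the kinase BCKDK, which phosphorylates and inactivates E1α, and by the phosphatase PPM1K, which removes that phosphate. Bckdk had log2 levels of 3.81, 4.05 and 3.89 for Sham and 3.54, 3.84, 3.82 and 3.90 for TAC. The groups overlapped, and the difference was -0.14 (SE 0.12, 95% interval -0.42 to 0.14, limma adjusted p 0.631). The brightest Ppm1k probe was at 9.56, 9.85 and 9.73 for Sham and 9.46, 9.78, 9.62 and 9.72 for TAC. It differed by -0.07 (95% interval -0.34 to 0.20, limma adjusted p 0.814). The dimmer Ppm1k probe took the opposite sign, at 1.58, 0.85 and 0.95 for Sham and 1.41, 1.67, 1.32 and 1.21 for TAC, a difference of 0.28 (SE 0.20, limma adjusted p 0.580). Sham replicate 2 lay among the TAC arrays for that probe, so the pair of probes disagreed in sign with neither past the test.

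In the leucine arm, isovaleryl-CoA dehydrogenase (Ivd) acts on the product of the dehydrogenase complex, and 3-methylcrotonyl-CoA carboxylase, with its biotin-carrying α subunit (Mccc1) and its β subunit (Mccc2), acts on the product of Ivd. Ivd had log2 levels of 5.77, 5.82 and 5.61 for Sham and 5.40, 5.82, 5.67 and 5.73 for TAC. The groups overlapped, and the difference was -0.08 (95% interval -0.36 to 0.21, limma adjusted p 0.808). Mccc1 had levels of 5.26, 5.44 and 5.10 for Sham and 4.25, 5.11, 4.92 and 4.97 for TAC. Only TAC replicate 2 reached the Sham range, by a margin of less than the Sham SD of 0.17, and TAC replicate 1 lay far below the other arrays. The log2 difference was -0.45 (SE 0.22, 95% interval -0.96 to 0.06), with a limma unadjusted p of 0.0755 and an adjusted p of 0.440. The other Mccc1 probe, at 3.32, 3.40 and 2.98 for Sham and 1.98, 3.15, 2.76 and 2.87 for TAC, differed by -0.54 (SE 0.27, limma adjusted p 0.453). Both probes thus had the same sign and the same low array, and without TAC replicate 1 they differed by -0.26 and -0.31.

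Mccc2 had levels of 3.39, 3.42 and 3.35 for Sham and 2.64, 3.36, 3.22 and 3.11 for TAC. Of the TAC arrays, 3 lay below the Sham arrays and TAC replicate 2 among them. The difference was -0.30 (SE 0.17, 95% interval -0.70 to 0.10, limma adjusted p 0.489), or -0.16 (adjusted p 0.503) without TAC replicate 1. In the table of 8 arrays Mccc1 differed by -0.43 (limma unadjusted p 0.0501, adjusted p 0.352) and Mccc2 by -0.28 (adjusted p 0.430). The other Mccc1 probe differed there by -0.55 (limma unadjusted p 0.0468, adjusted p 0.346).

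**Figure D2:**
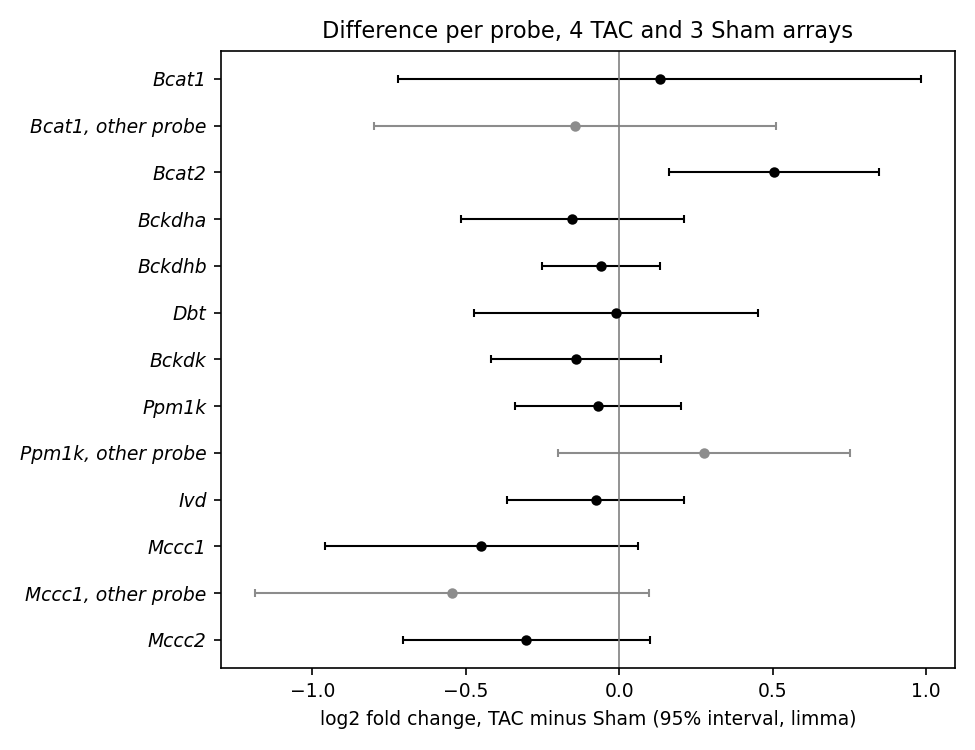
Log2 difference, TAC minus Sham, of the 13 tested probes of the 10 genes on the 7 scanner arrays, with 95% intervals from limma and further probes of a gene in grey. The Bcat2 interval, 0.16 to 0.85, lies above 0, and the intervals of the other probes cross 0.

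Across the members, 2 genes had a higher and 8 a lower mean after TAC, where 55.8% of all probes tested had a lower mean, and the arrays did not share this equally. Relative to the Sham mean, the median of the 10 genes was -0.35 on TAC replicate 1 but 0.03, -0.08 and -0.01 on TAC replicates 2 to 4, and 8, 5, 8 and 6 of the 10 genes lay below their Sham mean on TAC replicates 1 to 4. TAC replicate 1 was the lowest of the 7 arrays for 8 of the 10 genes (80.0%), where it was lowest for 35.9% of all probes tested. In the table of 8 arrays Sham replicate 1 also lay low, with a median of -0.13 and 7 of 10 genes below the mean of the other Sham arrays. Without TAC replicate 1 the median difference of the members was -0.02, as it was for all probes tested, and Bcat2 differed by 0.56 (adjusted p 0.236). Brown adipocyte markers were low on TAC replicate 1, where the list of 8 genes had a median of -0.39. That median was -0.24 to -0.14 on TAC replicates 2 to 4 and -0.12 to 0.17 on Sham replicates 2 to 4. Sham replicate 1 had a median of -0.18 in the table of 8 arrays, within the range of TAC replicates 2 to 4. The mean of the list on TAC replicate 1, -1.33, rested on Elovl3 (-5.54), a fatty acid elongase, and Dio2 (-2.59), the deiodinase that activates thyroid hormone. Both were named after their values were seen. All the markers leaned one way, with 8 of 8 genes lower in mean and Ucp1 alone lower at an unadjusted p of 0.05 (log2 difference -0.61, limma adjusted p 0.336). Their part in the low member levels on TAC replicate 1 was not tested.

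**Figure D3:**
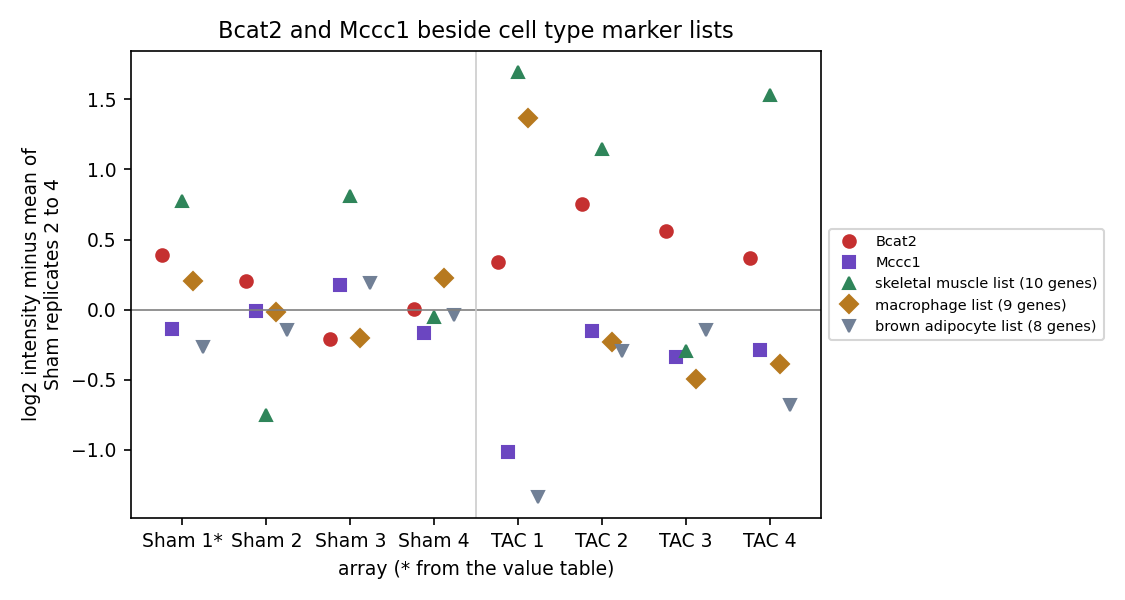
Log2 deviation from the mean of Sham replicates 2 to 4 on each array, for Bcat2, for Mccc1 and for the means of the brown adipocyte, skeletal muscle and macrophage marker lists, with Sham replicate 1 taken from the table of 8 arrays. TAC replicate 1 holds the highest macrophage mean, 1.36, and the lowest brown adipocyte mean, -1.33, which rests on Elovl3 and Dio2 (median of the list, -0.39).

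In the table of 8 arrays, 0 of the 10 members had all TAC arrays above or all below all Sham arrays, where 3.53% and 6.29% of all probes tested did. By brightest probe, Bcat2 was the member higher at an unadjusted p of 0.05 there (4.65% of all probes were higher and 9.56% lower), and 0 members were lower.

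**Figure D4:**
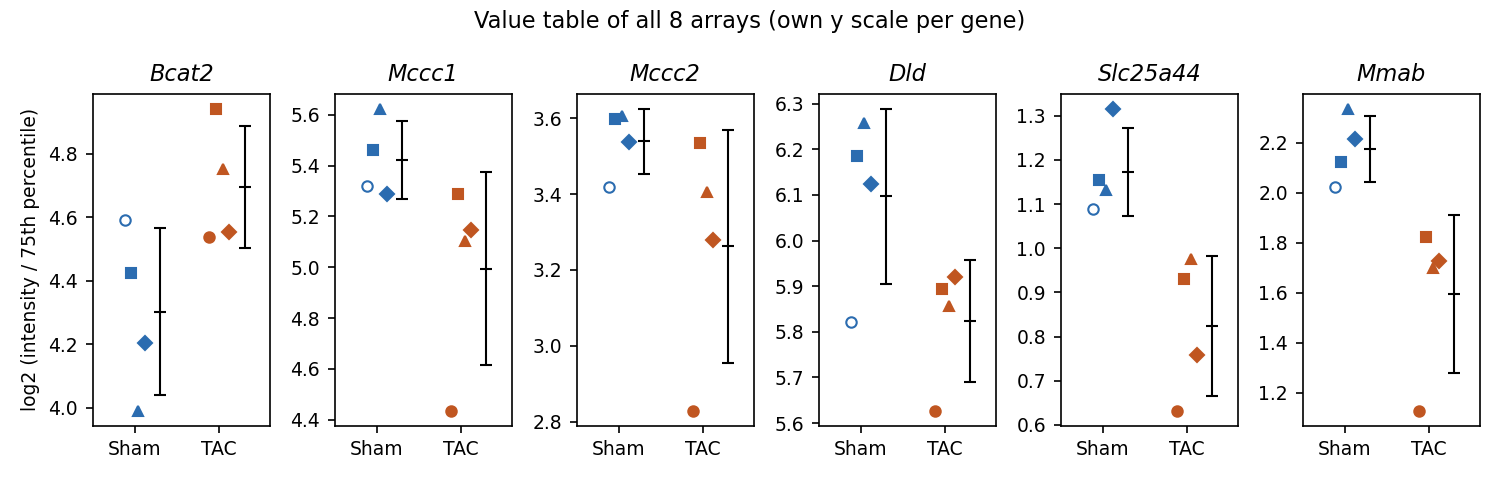
Log2 intensity of Bcat2, Mccc1, Mccc2, Dld, Slc25a44 and Mmab on all 8 arrays of the deposited table, each on its own y scale that does not start at 0, with a symbol for each replicate (open circle, Sham replicate 1) and bars for the group mean and SD. For Bcat2, Sham replicate 1 at 4.59 lies above TAC replicate 1 at 4.54, so that the groups overlap.

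The wider pathway was a list drawn up with earlier results of these data known. It held 24 further genes for transport, the shared E3 subunit, the later steps of each arm, the propionyl-CoA route and the transcription factor KLF15. By brightest probe, 0 of these passed an adjusted p of 0.05, the smallest adjusted p being 0.279. At an unadjusted p of 0.05, 4 were lower (Slc25a44, Dld, Pcca and Mmab) and 0 higher. The share lower was 16.7%, beside 8.43% of all probes, and 4.38% of all probes were higher. In mean, 16 were lower and 8 higher (55.8% of all probes were lower), with a median difference of -0.11. By brightest probe, all TAC arrays lay below all Sham arrays for 5 of the 24 on the 7 scanner arrays (20.8%, beside 10.4% of all probes). In the table of 8 arrays they did so for 2 of the 24, Slc25a44 and Mmab (8.33%, beside 6.29%). TAC replicate 1 was the lowest of the 7 arrays for 15 of the 24, and without it the median difference was -0.07.

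Slc25a44, the mitochondrial carrier of branched-chain amino acids, had log2 levels of 0.95, 0.94 and 1.12 for Sham and 0.44, 0.75, 0.79 and 0.59 for TAC. No TAC array reached a Sham array, here or in the table of 8 arrays, and the difference was -0.36 (SE 0.11, limma adjusted p 0.304). Its dimmer probe differed by 0.06 (adjusted p 0.827), with overlapping groups, so the probes did not share a sign. Dld, the E3 subunit that the complex shares with pyruvate and α-ketoglutarate dehydrogenase, was at 5.98, 6.07 and 5.93 for Sham and 5.44, 5.72, 5.68 and 5.75 for TAC. The TAC arrays all lay below the Sham arrays, with a difference of -0.35 (SE 0.10, limma adjusted p 0.279) and of -0.36 (adjusted p 0.209) for its other probe. In the table of 8 arrays Sham replicate 1, at 5.82, fell among the TAC arrays for the brighter Dld probe. The difference there was -0.27 (limma adjusted p 0.349). For the other Dld probe the groups stayed narrowly apart in that table, with Sham replicate 1 at 5.22 and TAC replicate 4 at 5.21. That probe differed by -0.30 (limma adjusted p 0.247).

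Later in the pathway, Mmab, which makes the cobalamin cofactor of methylmalonyl-CoA mutase, was at 1.92, 2.15 and 2.02 for Sham and 0.94, 1.65, 1.52 and 1.55 for TAC. The groups did not overlap, here or in the table of 8 arrays, and the difference was -0.61 (SE 0.18, limma adjusted p 0.279), with -0.55 (adjusted p 0.285) and -0.10 (adjusted p 0.786) for its other probes. Pcca, the biotin-carrying subunit of propionyl-CoA carboxylase, was at 4.85, 4.88 and 4.6 for Sham and 4.01, 4.47, 4.40 and 4.50 for TAC. It differed by -0.44 (SE 0.15, limma adjusted p 0.324), without overlap on the 7 arrays but with overlap in the table of 8. Klf15, a transcription factor known to promote branched-chain amino acid breakdown, differed by 0.03 (95% interval -0.31 to 0.36, limma adjusted p 0.950).

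By arm, the differences of the 4 valine genes lay between -0.27 (Acad8) and 0.08 (Aldh6a1), those of the 4 isoleucine genes between -0.22 (Acat1) and 0.11 (Hsd17b10), and those of the 6 genes of the propionyl-CoA route between -0.61 (Mmab) and -0.03 (Mmaa), each by its brightest probe. A dim Mmaa probe, well above background on 6 of 7 arrays, differed by -0.73 (SE 0.43, limma adjusted p 0.50). Of the 6 transport genes, Slc7a8, a neutral amino acid transporter of the plasma membrane, had the largest higher mean, 0.73 (SE 0.31, limma unadjusted p 0.0501, adjusted p 0.390). Slc7a8 differed by 0.75 in the table of 8 arrays (limma unadjusted p 0.0238, adjusted p 0.287). Without TAC replicate 1, Slc7a8 differed by 0.87 (limma unadjusted p 0.0319, adjusted p 0.337). It was chosen after its values were seen, as were the other genes that mark the end of a range. Slc7a5, another such transporter, differed by -0.16 (limma adjusted p 0.513), and its other probe was well above background on 1 of 7 arrays and was not tested.

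**Figure D5:**
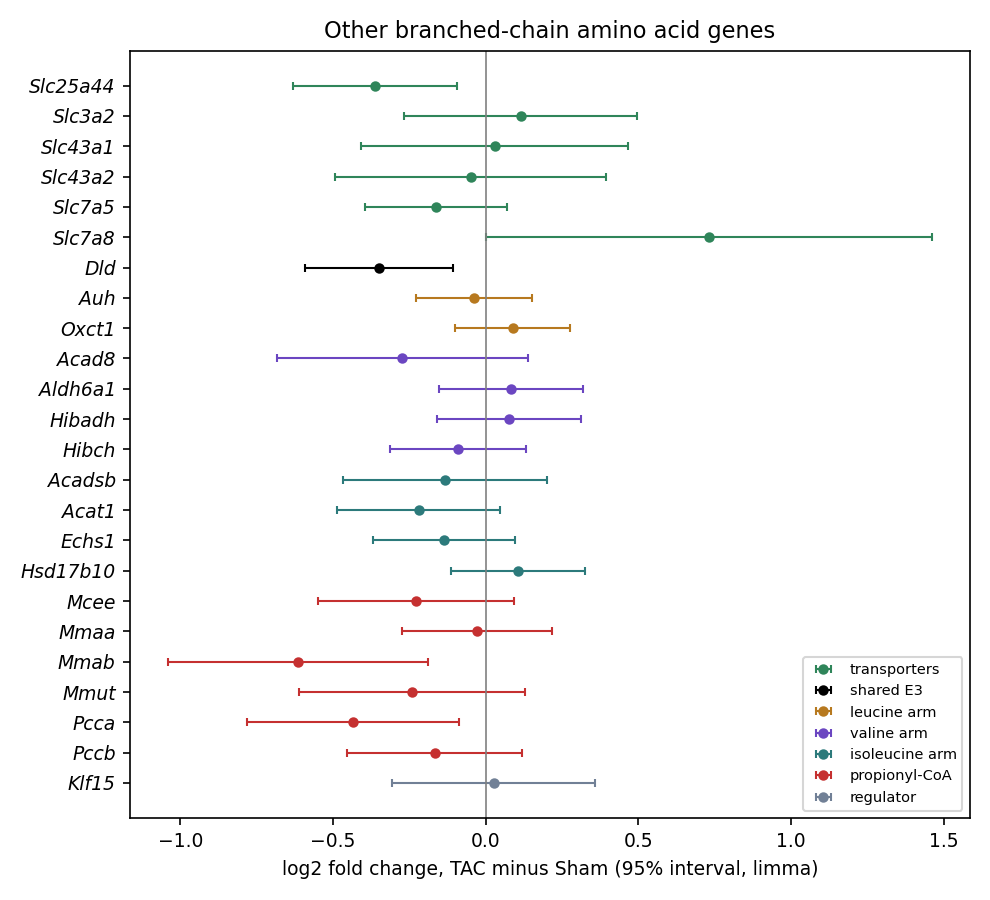
Log2 difference, TAC minus Sham, of the 24 wider pathway genes on the 7 scanner arrays, with 95% intervals from limma, grouped by step. Of the 24 intervals, 4 lie below 0 and 20 include 0.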

How the data were processed

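BAT RNA of 4 Sham and 4 TAC samples was labelled with Cy3, and per the labels the authors read the scans with Agilent Feature Extraction 10.7.1.1. The deposited scanner files of 7 arrays hold background-subtracted intensities, not scaled between arrays, with other values per spot (flags of 0 or 1) that the authors' software set for background, saturation and outliers. A deposited table gives intensities for all 8 arrays and by its values was divided by about the 75th percentile of each array (column medians 0.091 to 0.098). How it was made is not given in the sources used here, and its levels lie up to 0.21 above the scanner levels on the log2 scale. The scanner file of Sham replicate 1 was not analysed here.

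Outlier spots were left out, intensities were taken to log2 minus the 75th percentile of the array, and spots of a probe were averaged. A probe was tested if well above background on at least 3 of 7 arrays and measured on at least 2 per group. The group difference was fitted by limma 3.58.1 in R 4.3.3 (lmFit, eBayes), p-values were adjusted by Benjamini-Hochberg over 33364 probes, and the fit was tested on simulated data. The number of arrays limits the precision. Symbols came from RefSeq accessions (assembly GRCm38.p6) and named 28026 of 55681 probes (50.3%). The arrays were designed on build mm9, so no probe position is given. The brightest probe stood for a gene, and other probes of a gene are given where they differ in sign or are dim.

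The members, the wider list, the marker lists (brown adipocyte, mature adipocyte, skeletal muscle, macrophage, lymphocyte, endothelial, erythroid) and the tests were chosen with earlier results of these data known. Named were all members, Slc25a44, Dld, Klf15 and every wider gene at an unadjusted p under 0.05. Some genes of these lists are not reported here and are left out of every list count. The alternatives were normexp background correction (offset 50), median centring, quantile normalization, the deposited table, other filters, outlier spots kept, an intensity trend, array weights, the methods' t-test, a replicate block, each array left out, and the averaged probes of each gene.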

Additional observations from a re-analysis of the deposited data

Results flagged for a closer look

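In the table of 8 arrays, Bckdhb on Sham replicate 1 was at a log2 level of 6.32, while the other Sham arrays lay between 6.54 and 6.56, so the gap to its neighbour took 0.895 of the range of the group. This passed Dixon's critical value for 4 samples. Of the 36 groups of 4 examined, 1 did so, and chance gives about 1 in 20.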

How the results depend on the processing

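Of the 330 log2 differences of the 15 named genes under 22 alternatives, 303 kept their sign and their side of an adjusted p of 0.05 and 27 changed sign; the smallest adjusted p of any was 0.136. Bcat2 stayed higher throughout (0.39 to 0.61), with an unadjusted p under 0.05 in 22 of 22 and adjusted p from 0.148 to 0.676. Members and wider genes past an adjusted p of 0.05 numbered 0 throughout, the methods' t-test included, which gave 1 member higher and 0 lower at an unadjusted p of 0.05. With 3 against 4 arrays on 1 slide, small differences of dim probes such as those of Bcat1 are poorly measured. The cause of the changes below was not tested.

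Members lower at an unadjusted p of 0.05 numbered 1 with an intensity trend, normexp or a replicate block in the table of 8 arrays, and 0 to 1 with an array left out (1 without TAC replicate 2). The member was Mccc1 in each case. Wider genes lower numbered 3 to 5 under the alternatives. At this limma p, 8.43% of all probes were lower and 4.38% higher in the main fit. In the table of 8 arrays these shares were 9.56% and 4.65%. They are not given for the other alternatives. Wider genes higher numbered 1 with array weights, an intensity trend, normexp, either replicate block, the table of 8 arrays with or without TAC replicate 1, or a filter on every array, 2 with quantile normalization, and 0 to 1 with an array left out (1 without Sham replicate 4 or TAC replicate 1). Members with all TAC arrays below Sham numbered 2 with median centring (11.7% of all probes), normexp (9.48%) and the table of the same 7 arrays (11.8%), and 0 to 3 with an array left out: 3 without Sham replicate 4 (15.4%), 2 without TAC replicate 2 (15.2%) and 0 otherwise (12.7% to 16.3%). Members with all TAC arrays above Sham numbered 2 with quantile normalization (7.2%) and 0 in the table of 8 arrays (3.53%) and when TAC replicate 1 was dropped from it (5.34%). No such count was made for array weights, the intensity trend, the methods' t-test, the replicate blocks or the averaged probes of each gene. The median difference of the members ranged from -0.12 to 0.0061, beside -0.06 to 0.0060 for all probes.

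Changes of sign were as follows. Array weights gave -0.16 for Bcat1, 0.10 for Dbt and 0.013 for Ivd. Quantile normalization gave 0.012 for Bckdhb, 0.019 for Dbt, 0.089 for Ppm1k and 6.1e-05 for Ivd. The table without TAC replicate 1 gave -0.16 for Bcat1, 0.023 for Bckdhb, 0.14 for Dbt, 0.0041 for Ppm1k and 0.033 for Ivd. The mean of all probes gave -0.0059 for Bcat1 and 0.10 for Ppm1k, and median centring -0.0036 for Klf15. With an array left out, values ranged from -0.12 to 0.45 for Bcat1, -0.12 to 0.16 for Dbt, -0.15 to 0.00026 for Ppm1k, -0.14 to 0.0087 for Ivd and -0.055 to 0.12 for Klf15.

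The labels did not pair same-numbered samples. On the 7 scanner arrays the replicate number was also the column of the slide. Deviations of same-numbered scanner arrays correlated at 0.0017, -0.026 and -0.021, and in the table at 0.27, 0.02, 0.06 and 0.02 for replicates 1 to 4. Arrays with different numbers were not compared in this way, so these correlations cannot decide whether same-numbered arrays resemble each other. With the replicate number as a block on the 7 scanner arrays, TAC replicate 1 had no same-numbered Sham array and so did not enter the difference. Bcat1 was then at -0.12, Dbt at 0.16 and Ivd at 0.0087, the same values as without TAC replicate 1. That fit therefore says nothing separate about pairing.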

Other observations

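Mature adipocyte markers (4 of 4 tested) averaged -0.08 to 0.12 around the Sham mean on the Sham arrays and -0.25 to 0.03 on the TAC arrays, and endothelial markers (4 of 4 tested) -0.10 to 0.07 and -0.01 to 0.06. Lymphocyte markers (4 of 6 tested) averaged 1.09 on TAC replicate 1, -0.37 to -0.17 on the other TAC arrays and -0.28 to 0.44 on the Sham arrays. The B cell markers Cd79a and Ms4a1 were well above background on fewer than 3 arrays. Erythroid markers (2 of 3 tested) ranged from -0.27 to 0.54 on the Sham arrays and from -0.60 to 0.19 on the TAC arrays. The Sham arrays of these ranges were replicates 2 to 4. Within the table of 8 arrays, Sham replicate 1 averaged 0.02 for mature adipocyte, 0.14 for endothelial, 0.53 for lymphocyte and -0.75 for erythroid markers.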
